A study of Mus musculus with 6 samples.

Results

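Noncompact myelin is the part of the sheath that keeps cytoplasm between its membranes, at the inner and outer tongue and along the paranodal loops, and the myelin surface is the membrane that faces the axon or the outside of the sheath. The 8 genes described here encode proteins of these places and were taken by name: Mag, Mog, Cnp, Opalin, Ermn, Omg, Cadm4 and Jam3. All 8 were found among the 39017 gene identifiers of the count table, and all 8 passed the filter on low counts.

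The compact sheath is held together by proteins such as myelin basic protein, the product of Mbp, whereas the proteins of the noncompact parts carry out contact and support. MAG and CADM4 lie on the axon-facing membrane and bind partners on the axon, MOG lies on the outermost layer, and CNP and ermin work on the actin cytoskeleton of the cytoplasm-filled channels. In white matter Mog and Opalin mark late stages of oligodendrocyte maturation, whereas Cnp is switched on earlier in the lineage.

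Ribosome-bound RNA came from the corpus callosum, a white matter tract, of C57BL/6 mice that carry both RiboTag and Olig1-Cre, so that RPL22 bears an HA tag wherever Cre has acted; control and cuprizone mice share these alleles. The control group (replicates 24, 26 and 27) is named Vehicle in the titles, and the cuprizone group (replicates 30, 31 and 32) received a diet with 0.2% cuprizone, a copper chelator toxic to oligodendrocytes. The protocol describes females of 8 to 10 weeks at the start, 6 or 9 weeks of the diet and 3 weeks of recovery. It does not say which time point the libraries of either group stand for. No cuprizone percentage is given for the Vehicle group. The title of the series speaks of remyelination and cholesterol homeostasis. Olig1 is active from early stages of the lineage, so the tag is not limited to mature cells, and nothing in the labels says whether a library is 1 animal or a pool, so p-values measure the spread between these libraries.

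Totals were 18549360 to 22381307 counts per library. Cuprizone replicate 32 stood apart: chi-square divided by its degrees of freedom came to 85.1 and 101 when its counts were set against the other cuprizone libraries, and to 26.6 between those, and without it the 8 log2 fold changes lay between -3.40 (Mog) and -0.55 (Cadm4). Levels are TMM-scaled counts per 1000000 counts (CPM). The tagged ribosomal gene itself, Rpl22, had 70.4 ± 7.14 CPM in the controls against 76.4 ± 9.97 CPM in the cuprizone libraries (SD, n = 3, adjusted p = 0.657 with edgeR). Counts per gene do not separate its tagged and untagged forms, so this level is no measure of tagging or capture. The labels name the cells as oligodendrocytes, and 10 compact myelin genes summed to 56080 to 77080 CPM in the controls and 7927 to 14930 CPM in the cuprizone libraries. Markers of other cell types were found too. The 7 astrocyte markers summed to 18240 to 20820 CPM in control and 12860 to 25230 CPM in cuprizone, led by the glutamate transporter gene Slc1a2 (9992 ± 987 and 6798 ± 2822 CPM) and the filament gene Gfap (5995 ± 2254 and 9483 ± 2349 CPM). None of the 7 was at 0 in all libraries. By edgeR, limma-voom and DESeq2 alike 0 were called, and before adjustment 0 had p under 0.05. Their part in the falls of the 8 genes was not tested.

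The 8 genes all stood lower in the cuprizone libraries, and 7 fell at a Benjamini-Hochberg adjusted p under 0.05 with edgeR's quasi-likelihood test over 16569 genes. Among all genes tested 5.7% were called lower and 1.87% higher. The fold differences ran from 12.8-fold lower for Mog to 1.62-fold lower for Cadm4, which did not pass (adjusted p = 0.0699). In each of the 8 the highest cuprizone library lay below the lowest control library, a separation in the lower direction that 17.6% of all genes tested showed. The median log2 fold change of the 8 was -2.32, beside 0.02 for all genes tested. In ribosome-bound RNA captured from tissue, fewer tagged oligodendrocytes and less ribosome-bound RNA per oligodendrocyte cannot be told apart. This holds for every fall given here, and other sources of a fall were not tested either.

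**Figure D1:**
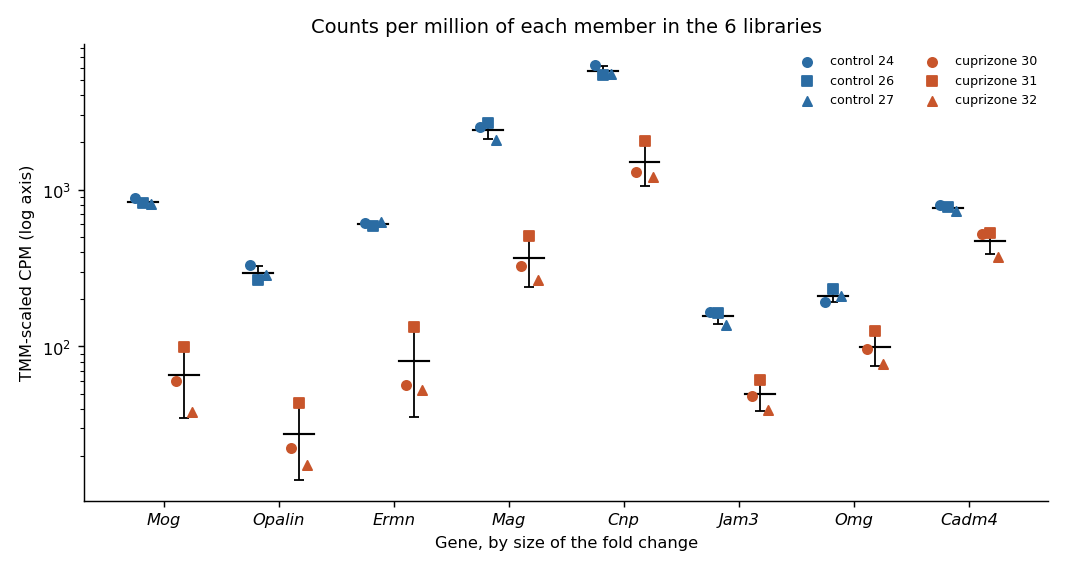
TMM-scaled CPM (log axis) of the 8 genes in the 3 control and 3 cuprizone libraries, ordered by fold change; bars give the mean and SD. The groups do not overlap for any gene, and the gap narrows from Mog, 8.24-fold between the lowest control and the highest cuprizone library, to Cadm4, 1.38-fold.

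The start regions of these genes were read for 2 motifs linked to oligodendrocyte maturation. MYRF, the factor that switches on myelin genes, binds letters such as CTGGCAC or CTGGTAC, and factors of the SOX family, SOX10 among them, bind letters such as ACAAAG. RefSeq windows on GRCm38.p6, from 250 bases before to 50 bases after the transcript start, were at hand for 6 of the 8 genes (Mag, Mog, Cnp, Opalin, Ermn and Cadm4). For Mag, which has 3 windows, the one nearest to the annotated start was used. The stretches that carry the matches, and that of Cadm4 as the gene with the smallest change, are shown 5′ to 3′ on the strand of the gene. Capitals mark the matches on either strand. Those of Mag (chr7:30914874-30915113, minus strand), Mog (chr17:37023399-37023648, minus), Cnp (chr11:100574689-100574903, plus), Opalin (chr19:41077114-41077363, minus) and Cadm4 (chr7:24481773-24482022, plus) lie before the gene's annotated start, and a stretch of 30 bases shortly after the start of Opalin (chr19:41077064-41077093, minus) is added.
Mag: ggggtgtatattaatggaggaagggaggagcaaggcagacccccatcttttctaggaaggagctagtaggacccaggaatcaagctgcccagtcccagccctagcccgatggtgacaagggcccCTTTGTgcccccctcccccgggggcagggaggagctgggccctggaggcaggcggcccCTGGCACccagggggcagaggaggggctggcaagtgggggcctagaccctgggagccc
Mog: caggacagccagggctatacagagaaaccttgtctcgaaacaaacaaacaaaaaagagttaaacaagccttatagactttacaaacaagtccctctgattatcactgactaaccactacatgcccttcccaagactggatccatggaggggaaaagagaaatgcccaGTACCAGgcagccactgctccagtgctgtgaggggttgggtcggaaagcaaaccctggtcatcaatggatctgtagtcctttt
Cnp: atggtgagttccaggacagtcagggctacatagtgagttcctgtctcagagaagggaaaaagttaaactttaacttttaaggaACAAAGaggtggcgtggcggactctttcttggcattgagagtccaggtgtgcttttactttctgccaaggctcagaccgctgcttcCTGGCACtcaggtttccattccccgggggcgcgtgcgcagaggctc
Opalin: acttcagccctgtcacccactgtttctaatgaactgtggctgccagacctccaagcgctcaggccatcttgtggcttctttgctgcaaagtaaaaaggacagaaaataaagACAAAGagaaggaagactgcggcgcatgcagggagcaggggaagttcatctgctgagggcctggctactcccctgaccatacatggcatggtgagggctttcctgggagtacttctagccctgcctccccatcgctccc
Opalin after the start: gagACAAAGacctgcaGTGCCAGtgagaga
Cadm4: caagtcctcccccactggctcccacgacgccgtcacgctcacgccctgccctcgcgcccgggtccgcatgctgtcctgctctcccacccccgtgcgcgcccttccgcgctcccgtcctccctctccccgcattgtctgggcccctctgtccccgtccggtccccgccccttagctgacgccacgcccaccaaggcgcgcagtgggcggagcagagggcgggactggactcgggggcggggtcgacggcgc

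A MYRF-type match stood in 4 of the 6 windows, where 7.1% of 32851 windows of the same length in the RefSeq table held one. In Mag, Cnp and Mog it began 68, 81 and 83 bases before the RefSeq start, and in Opalin it began 37 bases after the start, those of Mog and Opalin being on the strand opposite to the gene. A SOX-type match stood in 3 of the 6 windows (Mag, Cnp and Opalin, the last with 2 matches), against 18.7% of all windows. The matches of the 2 motifs did not overlap. Ermn, with 47.0% G and C in its window, and Cadm4, with 77.0%, held neither set of letters. The letters were set after these windows had been seen, so the shares are a description and support no excess of either motif. The matches are of letters and no measurement of binding.

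**Figure D2:**
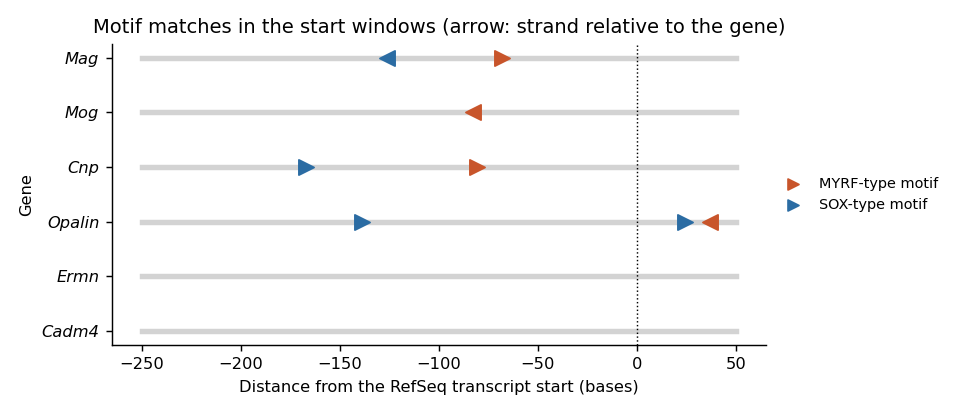
Motif matches in the RefSeq start windows of 6 of the genes, by distance from the transcript start in bases; arrows point along the strand of the match relative to the gene. The MYRF-type matches of Mag, Cnp and Mog lie between 68 and 83 bases before the start, and Ermn and Cadm4 have no match to either motif.

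Mog encodes myelin oligodendrocyte glycoprotein, an immunoglobulin-like protein of the outermost myelin layer and an autoantigen in demyelinating disease (ENSMUSG00000076439, chromosome 17, 37010743 to 37023398 in GRCm38). Its level was 883, 821 and 814 CPM in control replicates 24, 26 and 27 and 60.1, 98.8 and 38.3 CPM in cuprizone replicates 30, 31 and 32. The controls lay close together, with a coefficient of variation of 4.56%, and the cuprizone libraries spread by 46.6%. The log2 fold change was -3.67 ± 0.36 (SE, adjusted p = 0.00211 with edgeR). By size of fall Mog ranked 32 among the 16569 genes.

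Opalin, a sialylated transmembrane protein found in oligodendrocytes (ENSMUSG00000050121, chromosome 19, 41061710 to 41077113), stood at 330, 264 and 286 CPM in control and at 22.5, 43.4 and 17.6 CPM in cuprizone. These are the lowest counts of the 8 genes in a library, down to 372 reads in replicate 32, where counting error alone is 5.18% of the value, and the cuprizone libraries had a coefficient of variation of 49.4%. The log2 fold change was -3.40 ± 0.35 (adjusted p = 0.00254 with edgeR).

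Mag encodes myelin-associated glycoprotein, a sialic acid-binding lectin of the membrane next to the axon (ENSMUSG00000036634, chromosome 7, 30899176 to 30914873). It was at 2505, 2676 and 2061 CPM in control and at 328, 506 and 264 CPM in cuprizone, so that each cuprizone library lay far below the controls. The fall was 6.60-fold, a log2 fold change of -2.72 ± 0.29 (adjusted p = 0.00277 with edgeR). GENCODE lists 8 transcripts of Mag, and counts per gene do not separate its long and short forms.

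Ermn encodes ermin, an actin-binding protein of the oligodendrocyte cytoskeleton related to the ezrin, radixin and moesin family (ENSMUSG00000026830, chromosome 2, 58045113 to 58052864). Control libraries were within 586 to 621 CPM, the tightest of the 8 genes (coefficient of variation 3.07%). In cuprizone the gene was at 56.4, 133 and 52.9 CPM, with replicate 31 well above the other libraries, and its spread of 55.9% was the widest of the 8. The log2 fold change was -2.91 ± 0.38 (adjusted p = 0.00566 with edgeR). Galnt5 lies across Ermn on the opposite strand with 237 shared exonic bases, and fell from 21.9 ± 2.06 to 1.93 ± 1.12 CPM (log2 fold change -3.49). Whether reads were counted by strand is not known from the labels, so reads in the shared bases may belong to either gene.

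Cnp, the cyclic nucleotide phosphodiesterase that keeps the cytoplasmic channels of myelin open (ENSMUSG00000006782, chromosome 11, 100574904 to 100591729), was the most abundant of the 8. It was at 6258, 5393 and 5443 CPM in control and at 1292, 2040 and 1201 CPM in cuprizone. Replicates 30 and 32 were close together and replicate 31 was higher. Cnp fell 3.77-fold (log2 fold change -1.92 ± 0.27, adjusted p = 0.00755 with edgeR), to 26.5% of the control level. Dnajc7, on the opposite strand with 154 shared exonic bases, was at 101 ± 2.26 and 104 ± 10.6 CPM (adjusted p = 0.875).

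Jam3, a junctional adhesion molecule with a PDZ-binding tail (ENSMUSG00000031990, chromosome 9, 27097384 to 27155421), was at 166, 164 and 136 CPM in control and at 48.6, 61.2 and 39.3 CPM in cuprizone. The difference was 3.13-fold (log2 fold change -1.65 ± 0.18, adjusted p = 0.00333 with edgeR). An antisense gene with 1159 shared exonic bases, Gm48796, is not among the identifiers of the table.

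Omg encodes oligodendrocyte myelin glycoprotein, a lipid-anchored protein with leucine-rich repeats that neurons make as well (ENSMUSG00000049612, chromosome 11, 79500982 to 79504084). It stood at 192, 231 and 210 CPM in control and at 96.3, 125 and 77.0 CPM in cuprizone, a 2.12-fold fall (log2 fold change -1.09 ± 0.19, adjusted p = 0.0178 with edgeR). Its adjusted p was 0.0507, 0.072 and 0.0681 without control replicate 24, 26 or 27 and 0.0802 without cuprizone replicate 30. The 8 neuron markers had none past the test (edgeR, DESeq2 and limma-voom; 0 at an unadjusted p under 0.05), none at 0, and sums of 1686 to 2715 CPM in control and 2058 to 3918 CPM in cuprizone. Nefl, Nefm and Rbfox3 had log2 fold changes of 0.58, 0.51 and 0.57. The part of neurons in the level of Omg was not tested. Omg lies inside Nf1, which is read from the opposite strand, with no shared exonic base, and Nf1 was at 101 ± 8.00 and 85.3 ± 20.5 CPM.

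Cadm4, a nectin-like adhesion molecule that joins the glial membrane to the axon along the internode (ENSMUSG00000054793, chromosome 7, 24482023 to 24504539), had the smallest difference. Control libraries had 795, 774 and 727 CPM and cuprizone libraries 522, 526 and 373 CPM, so the groups stood apart although the log2 fold change of -0.69 ± 0.18 did not pass (adjusted p = 0.0699 with edgeR). Without cuprizone replicate 32 the log2 fold change was -0.55 with an adjusted p of 0.0379, and DESeq2 gave an adjusted p of 0.00195. Without any of the other 5 libraries the adjusted p was 0.0756 to 0.192.

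The 3 cuprizone libraries kept 1 order in all 8 genes: replicate 31 was highest, replicate 30 in between and replicate 32 lowest. For Cadm4 this order rests on nearly equal values in replicates 31 and 30, 526 and 522 CPM. That order held in 21.7% of the other 16561 genes tested and in 46.7% of the other 938 genes called lower. In replicates 30, 31 and 32 the astrocyte markers summed to 21800, 25230 and 12860 CPM. The neuron markers summed to 2699, 2058 and 3918 CPM, and the microglia markers to 1147, 1431 and 2491 CPM. The part of these cells in the order was not tested. Relative to the control mean, the mean log2 level of the 8 genes was -2.41, -1.80 and -2.74 in replicates 30, 31 and 32, and between -0.07 and 0.06 in the controls. In each cuprizone library Mog was the lowest of the 8 (-3.80, -3.09 and -4.45) and Cadm4 the highest (-0.55, -0.54 and -1.03). The 8 genes together took 1.02% ± 0.0649 of all counts in control and 0.287% ± 0.0740 in cuprizone (SD, n = 3).

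**Figure D3:**
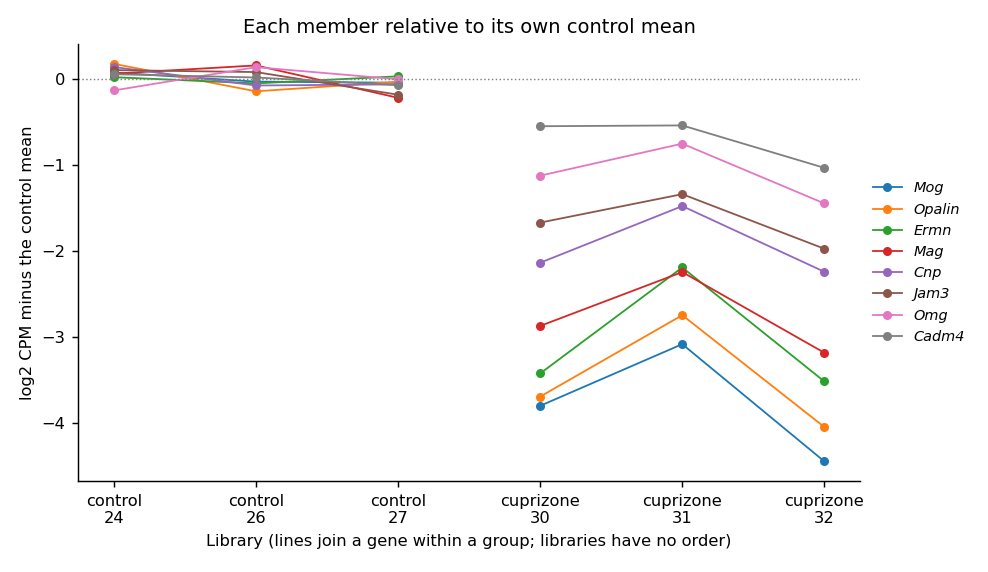
log2 CPM of each gene minus its own control mean, by library; lines join the libraries of a group for 1 gene and imply no order. The controls stay within -0.22 and 0.18, and the cuprizone libraries fan out from Cadm4, at -0.54 to -1.03, to Mog, at -3.09 to -4.45, with replicate 31 highest for every gene.

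Ratios of 2 genes within a library do not depend on scaling between libraries, and they compare the falls with each other. Of the 28 pairs among the 8 genes, 26 had ratios that did not overlap between the groups, a separation seen in 31.8% of all pairs of genes tested. The exact 2-sided permutation test of 3 against 3 libraries cannot go below 0.1, and over 28 pairs the smallest adjusted p was 0.108, so no single ratio could pass. The log2 ratio of Mog to Cadm4 was 0.15, 0.09 and 0.16 in control and -3.12, -2.41 and -3.28 in cuprizone. That of Mag to Mog, the inner and the outer surface glycoprotein, was 1.52 ± 0.18 in control and 2.53 ± 0.23 in cuprizone. For both pairs the groups did not overlap, which by itself gives the smallest p of this test. Mog and Cadm4 are the genes with the largest and the smallest fall of the 8. The pairs whose ratios overlapped were Mag with Ermn, with a difference of 0.28, and Cnp with Jam3, with a difference of -0.29.

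Against Mbp, a gene of the compact sheath, the 8 spread to both sides. Mbp belongs to the 10 compact myelin genes, whose log2 fold changes ran from -4.74 to -0.28, so the sides depend on the gene chosen. Its control replicates 24, 26 and 27 were scattered, at 42600, 24610 and 35880 CPM. Relative to Mbp, Mog and Opalin were lower in cuprizone without overlap of the groups, with log2 differences of -1.11 and -0.84, a separation that 0.211% of the other genes tested showed in that direction. Mag (-0.10) and Ermn (-0.38) overlapped between the groups, and the other 4 were higher without overlap, from 0.71 for Cnp to 1.96 for Cadm4, as were 97.3% of the other genes tested. Relative to Sox10, a transcription factor present throughout the lineage, 6 of the 8 were lower without overlap, from -2.49 for Mog to -0.37 for Jam3, Omg overlapped (0.18), and Cadm4 was higher (0.58). Of the other genes tested 1.61% were lower and 86.4% higher without overlap against Sox10. Relative to Olig1, 5 were lower without overlap, beside 1.65% of the other genes tested, 0 were higher without overlap, and Jam3 (-0.52), Omg (0.04) and Cadm4 (0.44) overlapped. Relative to Olig2, another lineage factor, all 8 had lower means and 7 did not overlap, beside 4.39% of the other genes tested, Cadm4 being the exception at -0.21.

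Compared per kilobase of exon, the order of the genes in control was Cnp (1566 ± 134 CPM per kb), Mag (593 ± 78.0), Mog (493 ± 22.5), Cadm4 (354 ± 16.0), Ermn (167 ± 5.13), Opalin (99.6 ± 11.3), Omg (94.6 ± 8.90) and Jam3 (48.6 ± 5.19). The neighbours Mag and Mog, and Opalin and Omg, overlapped between libraries. In cuprizone Cnp stayed on top at 415 ± 127 CPM per kb, and Cadm4 came next at 219 ± 40.3, up from rank 4. Mag followed at 89.8 ± 30.8, then Omg at 44.6 ± 10.8, up from rank 7, and Mog at 38.6 ± 18.0, down from rank 3. Ermn (22.2 ± 12.4), Jam3 (15.5 ± 3.42) and Opalin (9.44 ± 4.66) closed the order, and from Omg to Opalin each neighbour overlapped the next. With the length of the longest transcript, Mag and Jam3 came to 992 and 80.1 CPM per kb in control, and Jam3 (25.6) and Ermn (22.2) changed places in cuprizone.

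**Figure D4:**
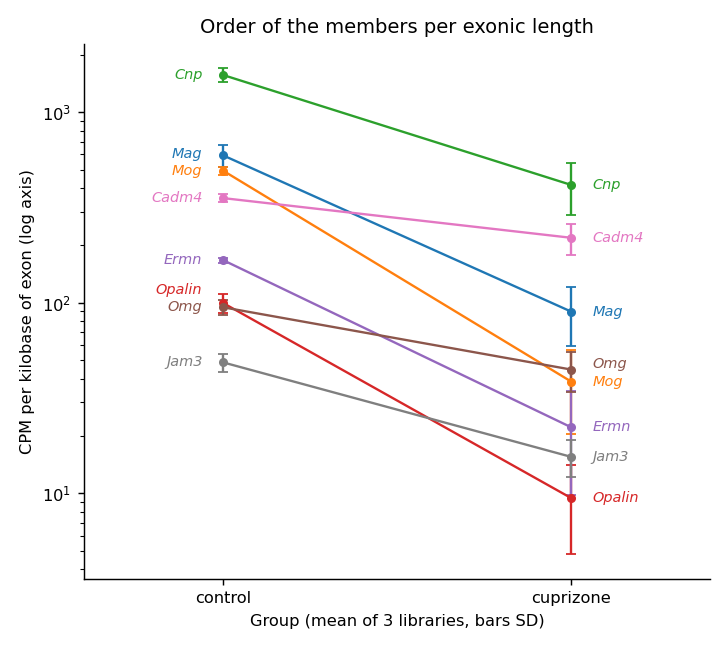
Mean CPM per kilobase of exon (log axis) of the 8 genes in control and cuprizone, with SD over 3 libraries a group. Cnp is highest in both groups, Cadm4 moves from rank 4 to rank 2, and Opalin from rank 6 to rank 8.

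**Figure D5:**
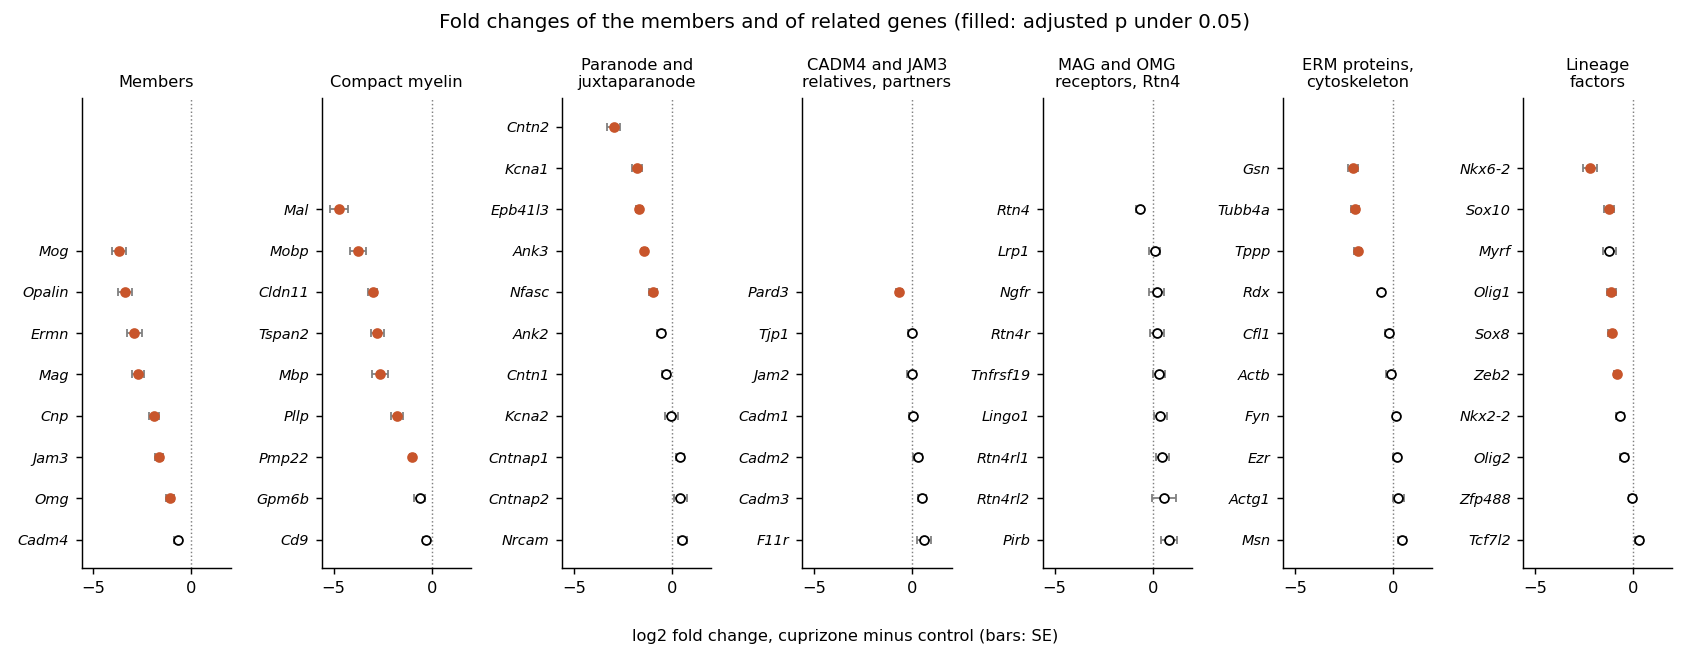
log2 fold change (cuprizone minus control) with SE for the 8 genes and for genes of 6 related lists, not all of which are drawn; filled points passed an adjusted p of 0.05. Values run from -3.67 for Mog to -0.69 for Cadm4 among the 8. Of the 9 genes for receptors of MAG and OMG, with the ligand gene Rtn4 counted among them, none passed. Of the 8 relatives and partners of CADM4 and JAM3, 1 passed.

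The partners of these proteins were mostly not past the test. Of 9 genes for the receptors of MAG and OMG, with Rtn4, the further ligand of the shared receptor, none passed with edgeR, and 8 had a positive log2 fold change. The receptor gene Rtn4r was at 33.5 ± 8.26 and 39.0 ± 19.4 CPM, its co-receptor Lingo1 at 112 ± 32.4 and 148 ± 66.8 CPM, and Rtn4rl1, a relative, had a log2 fold change of 0.49. Pirb was near 2.05 CPM in control. Rtn4 itself, which encodes Nogo, was at 689.5 ± 84.1 and 436 ± 38.6 CPM (-0.66 ± 0.16 on the log2 scale, adjusted p = 0.0558), and DESeq2 and limma-voom each called 1 gene of the list lower. Of the 9 genes, 1 (Rtn4) had an unadjusted p under 0.05. The part of neurons in the levels of the receptor genes was not tested. Of the 7 enzymes that make the gangliosides bound by MAG 0 were called by edgeR, by limma-voom or by DESeq2, and before adjustment 2 had p under 0.05. St3gal3, a sialyltransferase, B3galt4, a galactosyltransferase, and B4galnt1 had log2 fold changes of -0.36, -0.41 and 0.55.

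Cadm2 and Cadm3, the axonal partners of CADM4, were at 96.7 ± 15.9 and 167 ± 40.5 CPM in control and at 117 ± 32.3 and 238 ± 34.2 CPM in cuprizone (log2 fold changes 0.27 and 0.51, adjusted p = 0.524 and 0.2 with edgeR). These are higher means with overlapping groups, beside a lower mean for Cadm4. The neuron markers had log2 fold changes of 0.18 to 0.58, with a median of 0.37. The part of neurons in the levels of Cadm2 and Cadm3 was not tested. Jam2, which encodes a partner of JAM3, was at 92.5, 99.5 and 116 CPM in control and 114, 116 and 69.4 CPM in cuprizone, a log2 fold change of -0.04 ± 0.21 beside -1.65 for Jam3. Of the 8 relatives and partners 1 fell, Pard3, a polarity protein that binds JAM tails, from 66.5 ± 0.610 to 41.5 ± 7.12 CPM (log2 fold change -0.68, adjusted p = 0.0324). It did not pass without control replicate 24, 26 or 27 or cuprizone replicate 30.

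Of 10 cytoskeleton genes 3 fell: Tppp, which binds microtubules (-1.80 ± 0.17), Tubb4a, a tubulin of myelinating cells (-1.93 ± 0.21), and Gsn, which severs actin (-2.04 ± 0.26). Of the family that ermin resembles none passed with edgeR, beside -2.91 for Ermn: the log2 fold change was 0.19 for Ezr (adjusted p = 0.573), -0.61 for Rdx (adjusted p = 0.0639) and 0.47 for Msn (adjusted p = 0.255). Rdx was called lower by DESeq2, and by edgeR without cuprizone replicate 31. Fyn, a kinase that acts downstream of MAG, had 0.13 (adjusted p = 0.633). Msn is also abundant in microglia, whose 7 markers summed to 805 to 1486 CPM in control and 1147 to 2491 CPM in cuprizone. None of those markers was at 0 and none passed with edgeR or limma-voom, while DESeq2 called 1 higher and before adjustment 1 had p under 0.05. Among them Cd68, C1qa and Cx3cr1 had log2 fold changes of 1.52, 0.91 and 0.63, and 2 of the 7, P2ry12 (-0.28) and Tmem119 (-0.20), had negative ones. The part of these cells in the level of Msn was not tested.

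The compact myelin list had 8 of 10 genes lower and a median log2 fold change of -2.70, beside 7 of 8 and -2.32 for the noncompact and surface genes. Its range, from -4.74 for Mal to -0.28, was wider than that of -3.67 to -0.69 for the 8. Mobp, Cldn11 and Mbp had -3.76, -3.02 and -2.62. Of 11 paranode and juxtaparanode genes 5 fell, with a median of -0.57. A negative log2 fold change was found in 8 of the 11, the others being positive, up to 0.53. The neuron markers had a median of 0.37, and the part of neurons in the levels of the 11 genes was not tested. Among the 5 that fell were Cntn2, an adhesion protein of glia and axon (-2.97), Epb41l3, a scaffold that binds CADM4 and paranodal proteins (-1.66), and Ank3 (-1.41).

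Of 10 lineage transcription factors 5 fell, with a median of -0.97. Sox10 went from 736 ± 70.7 to 310.3 ± 104 CPM (-1.25 ± 0.25, adjusted p = 0.0289), and Olig1 had -1.12 (adjusted p = 0.0334). Nkx6-2, Sox8 and Zeb2 had -2.20, -1.10 and -0.85. Myrf, whose product acts on myelin genes, stood at 760.5 ± 65.1 and 328 ± 156 CPM (-1.22 ± 0.33, adjusted p = 0.0734 with edgeR). Olig2 had -0.46 (adjusted p = 0.253 with edgeR). DESeq2 called 7 of the 10 lower, Myrf among them, and limma-voom 5, without Myrf. Myrf and Olig2 were also called lower by edgeR without cuprizone replicate 31. With a library left out the list's count of lower genes was 0 without cuprizone replicate 30, 1 or 2 without a control, and 8 without cuprizone replicate 31. Among 6 progenitor genes 0 were called by edgeR, by limma-voom or by DESeq2, and 1 had p under 0.05 before adjustment, with C1ql1, Neu4 and Pdgfra at -0.45, -0.26 and -0.32. Of 7 genes of newly formed oligodendrocytes 1 fell with edgeR, Enpp6 (-1.18, adjusted p = 0.0185, and 0.0599 to 0.0758 without one of the controls). DESeq2 called 2 of the 7 lower and limma-voom 1. Log2 fold changes were negative in 4 of the 7, Tmem163 and Rras2 each having -0.63, while Gpr17 (0.05), Bmp4 (0.27) and Itpr2 (0.06) had positive values.

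The genes with a pattern closest to the mean of the 8, by Euclidean distance between centred log2 CPM over the 6 libraries among 11227 candidates, were Pacs2 (distance 0.12), Plcl1 (0.183), Rtkn2 (0.231), Plpp2 (0.254), Adamts4 (0.271), Tmem63a (0.273), Tprn (0.283), Car2 (0.288), Arsg (0.3) and Ptprd (0.304). Pacs2, a sorting protein, had means of 1227 CPM in control libraries and 243 CPM in the cuprizone ones, and Car2, a carbonic anhydrase of oligodendrocytes, at 1145 and 222 CPM. Their log2 fold changes lay between -2.44 and -2.15. Of the 8 themselves Cnp was nearest to the mean pattern, at 0.488, and Cadm4 farthest, at 2.02. Among the candidates 32 lay nearer to the mean than Cnp and 686 nearer than Cadm4.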

How the data were processed

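The table deposited by the authors holds raw counts per Ensembl gene for 6 libraries. Per the labels' protocols, ribosomes were captured by their HA tag, the RNA was cleaned up on Direct-zol columns, and a Kapa kit gave the libraries. bcl2fastq 2.17 and mm10 are named, per the submitters' processing notes; of the aligner, counter, annotation release and strand setting the sources used here give nothing. Identifiers were named from GENCODE M21 (GRCm38, the same build as mm10), and 37607 matched.

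The analysis used edgeR 4.0.16 under R 4.3.3 (filterByExpr, minimum count 10 and minimum total 15; TMM; robust quasi-likelihood test, 2-sided, Benjamini-Hochberg over 16569 genes, threshold 0.05). SE is the log2 fold change over the square root of F. CPM uses TMM-scaled library sizes, and log2 CPM a prior count of 2. Ratios add 0.5 counts. Depth leaves a counting error of at most 5.18% for the 8 genes. The procedure was tested on simulated data. Alternatives were other scalings and filters, DESeq2 1.42.0, limma-voom (limma 3.58.1) and leaving out each library.

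Members and lists were chosen with earlier results of these data known. Named genes are the members, a fixed set of partners, the 3 genes of smallest p in each list, and the 10 nearest patterns (mean of at least 5 CPM), except for some genes that are counted in their lists but not reported by name here; Galnt5, Dnajc7, Nf1 and Gm48796 were named for their position, and Tnfrsf19, Tcf7l2, P2ry12, Tmem119, Gpr17, Bmp4 and Itpr2 after their values were seen. Motif letters were set after the sequences had been seen. The 4 peripheral myelin genes of a further list summed to 2.33 to 3.92 CPM, with Pmp2 at 0 in the cuprizone libraries, Lhfpl3 was not matched, and 6 vascular genes, led by Flt1, Pecam1 and Cldn5 (log2 fold changes 1.34, 1.11 and 1.19), had none past edgeR's or limma-voom's threshold, 2 with an unadjusted p under 0.05 and 1 called higher by DESeq2.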

Additional observations from a re-analysis of the deposited data

How the results depend on the processing

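Of the 8 genes, 7 were lower at the threshold under RLE or upper-quartile scaling, TMM factors without myelin and abundant genes, either other filter and limma-voom, and 8 with DESeq2. With a library left out the number was 6 to 8, Omg and Cadm4 being the genes whose call moved. Mag, Mog, Cnp, Opalin, Ermn and Jam3 passed in all 13 alternatives, with the largest adjusted p, 0.0478, for Cnp without cuprizone replicate 30. The median log2 fold change of the 8 ran from -2.37 to -2.27 under the other settings and from -2.61 to -2.16 with a library left out. Over all genes DESeq2 called 862 higher, and with a library left out 65 to 464 were higher and 474 to 963 lower. Lower calls made up 75.3% of all calls, and 61.9% with DESeq2. In the related lists the lower calls, 22 as reported, were 27 with DESeq2 and ran with a library left out from 13 (cuprizone replicate 30) to 26, and the higher calls from 0 to 2, the latter Tnfrsf19 and Tcf7l2 without cuprizone replicate 32. The number of pairs of the 8 genes without overlap was 26 with and without the offset. No paired analysis was possible because the groups share no replicate number. Depth sets a counting error of at most 5.18% for the 8 genes.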
